A study of Mus musculus with 6 samples.

Results

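The AP-1 family transcription factors described here are Fos, Fosb, Fosl1, Fosl2, Jun, Junb, Jund, Batf, Batf3 and Maff, chosen by gene symbol. These 10 genes were all found among the 41549 genes of the deposited count table. The libraries were made from bone marrow-derived macrophages (Mφs), which are cells grown from the marrow of wild-type C57Bl/6N mice aged 10 to 12 weeks in the presence of M-CSF for 7 days. The M0 Mφs were transfected by lipofection with 50 pmol of a locked nucleic acid antisense oligonucleotide directed at 5′tRF-Glu(CTC), a glutamate tRNA fragment, giving the αGlu group, or with a control oligonucleotide, giving the Ctr group. Both groups were then polarized toward the M2 state with 10 ng/ml IL-4 and 10 ng/ml IL-13 for 48 h. Each group had 3 libraries of stranded mRNA, which the study describes as independent experiments, and every comparison here is αGlu against Ctr.

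AP-1 is a dimer of basic leucine zipper (bZIP) proteins that binds short DNA elements and switches the transcription of genes near them. Fos proteins cannot pair with one another and need a Jun partner, whereas Jun proteins can also pair among themselves, and the BATF proteins lack a transactivation domain and act with Jun partners and with IRF factors. In macrophages the dimers act downstream of MAP kinases and of growth factor, cytokine and Toll-like receptor signals, and which members are present decides which dimers can form.

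The oligonucleotide is shown because it defines the αGlu group. Its sequence is given 5′ to 3′ beside the 21 bases listed as its target, a stretch of the fragment and not its whole length. Capitals in the target mark the 20 bases that pair with the oligonucleotide, from base 2 to base 21.
αGlu antisense: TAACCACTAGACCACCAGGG
Target stretch of 5′tRF-Glu(CTC): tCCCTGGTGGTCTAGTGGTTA
The fragment itself is not measured in mRNA libraries, so its level could not be checked in these samples.

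Total counts ranged from 17912831 to 30386653 per library. The library αGlu 1 stood apart from the other αGlu libraries. Levels of single genes across libraries are given in CPM, counts scaled for depth by the trimmed mean of M-values (TMM). Over all tested genes the log2 CPM of αGlu 1 correlated with those of αGlu 2 and αGlu 3 at r = 0.929 and with those of the Ctr libraries at r = 0.966 to 0.982, whereas αGlu 2 and αGlu 3 correlated with each other at r = 0.992. The fold changes of the tested AP-1 members are therefore given with and without αGlu 1. All 8 macrophage markers examined were detected, with a summed level of 11849 to 13404 CPM in Ctr and 12595 to 18784 CPM in αGlu. Summed markers of neutrophils, dendritic cells, fibroblasts, lymphocytes, and mast cells and basophils each stayed at or below 7.18 CPM in every library, with Retnlg, Ly6g, Xcr1, Nkg7 and Mcpt4 at 0 throughout. Summed heat shock genes ran from 1716 to 1736 CPM in Ctr and from 1476 to 1625 CPM in αGlu, so that all αGlu libraries lay below all Ctr libraries. The part of these values in the AP-1 results was not tested.

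Levels of different genes were compared per transcript length, in deposited TPM, a unit that divides reads by transcript length and scales each library to the same total. In Ctr Mφs the Jun family led. Jun stood at 158 ± 24.6 TPM (SD, n = 3), Junb at 117 ± 19.1 TPM and Jund at 71.1 ± 20.3 TPM, which placed their mean levels at the 92.9th, 90.5th and 84.4th percentile of the tested genes. Batf3 followed at 38.5 ± 3.47 TPM, then Fos at 22.5 ± 3.18 TPM and Fosl2 at 19.1 ± 3.04 TPM. The Ctr ranges of Fos and Fosl2 overlapped, and those of the other neighbours down to Fosl2 did not. Batf, at 10.1 ± 1.55 TPM, and Maff, at 3.50 ± 1.01 TPM, were the lowest members that passed the filter on low counts. Fosl1, at 0.710 ± 0.469 TPM, and Fosb, at 0.0473 ± 0.0637 TPM, did not pass it, leaving 8 of the 10 members in the test across 11933 genes.

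The order of members was the same in the Ctr libraries except for Fos and Fosl2, and differed in αGlu 2 and αGlu 3. Jun ranked 1 by TPM in all Ctr libraries and in αGlu 1, but 2 in αGlu 2 and 3 in αGlu 3, where Junb ranked 1. Batf moved from rank 7 in every Ctr library to rank 5 in αGlu 1, rank 3 in αGlu 2 and rank 2 in αGlu 3. Batf3 and Jund ranked 4 and 3 in the Ctr libraries and αGlu 1, and 7 and 6 in αGlu 2 and αGlu 3. The summed level of the 10 members was 458, 491 and 372 TPM in Ctr 1 to 3 and 401, 585 and 505 TPM in αGlu 1 to 3, and the groups overlapped.

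The Jun family made up 79.9%, 79.5% and 75.7% of the summed AP-1 TPM in Ctr 1 to 3, and 82.9%, 66.2% and 60.2% in αGlu 1 to 3. The Fos family accounted for 9.04%, 9.81% and 10.03% in Ctr against 5.98%, 18.8% and 20.02% in αGlu. The Batf family accounted for 10.1%, 9.93% and 13.6% in Ctr against 10.4%, 13.9% and 18.2% in αGlu. In each family αGlu 2 and αGlu 3 lay outside the Ctr range and αGlu 1 did not follow them. The mean Jun-family share differed by -8.62 percentage points between the groups with all libraries and by -15.2 points without αGlu 1, a description with no test.

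**Figure D1:**
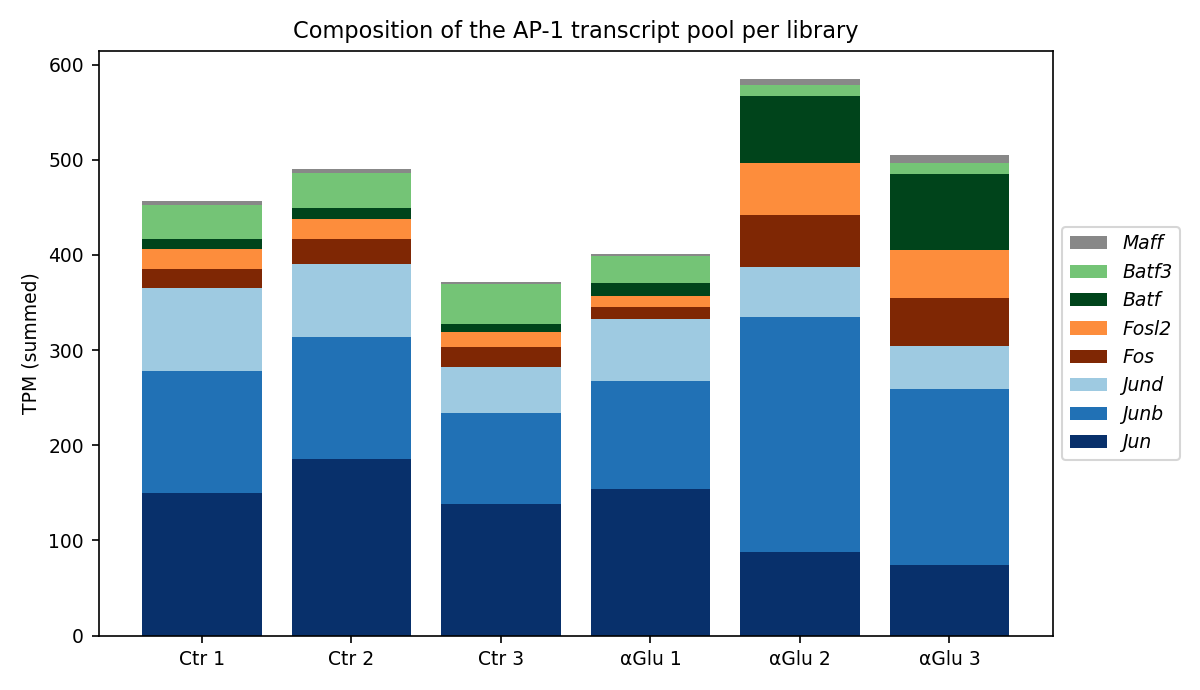
Summed TPM of the AP-1 members in each of the 6 libraries (vertical axis, TPM), stacked by member. Fosb and Fosl1 are left out because their bars would be too thin to see. The Jun segment is smaller and the Junb, Fos, Fosl2 and Batf segments are larger in αGlu 2 and αGlu 3 than in the Ctr libraries. The library αGlu 1 does not follow them. Its Jun-family share of 82.9% lies above the Ctr range of 75.7% to 79.9%, and its Fos and Fosl2 segments are the smallest.

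Ratios of members within a library show the same pattern without any scaling between libraries. The Junb to Jun ratio of TPM was 0.857, 0.688 and 0.684 in Ctr 1 to 3, 0.735 in αGlu 1, and 2.80 and 2.46 in αGlu 2 and αGlu 3. The Batf to Batf3 ratio was 0.302, 0.297 and 0.196 in Ctr 1 to 3 and 0.485, 6.37 and 7.16 in αGlu 1 to 3, so all αGlu libraries lay above all Ctr libraries, αGlu 1 by the least. The Fosl2 to Fos ratio stayed between 0.733 and 1.02 in all libraries, and its groups overlapped. The Fos to Jun ratio was 0.133, 0.140 and 0.154 in Ctr 1 to 3, 0.0788 in αGlu 1, and 0.618 and 0.685 in αGlu 2 and αGlu 3.

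**Figure D2:**
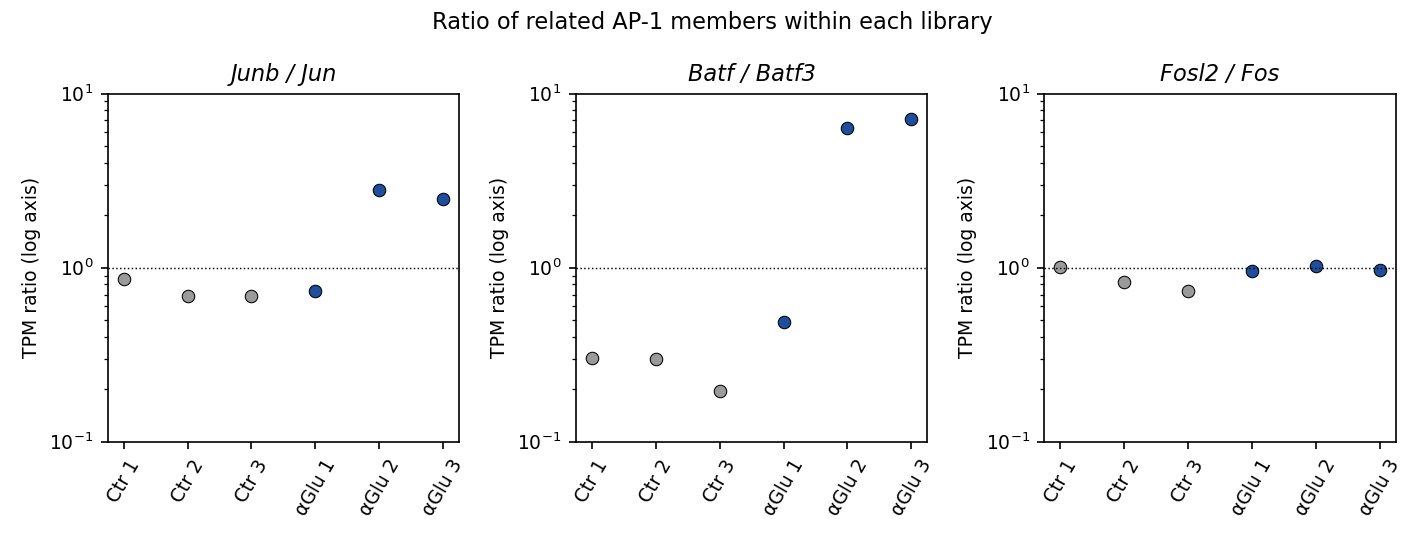
Ratio of the TPM of 2 related AP-1 members within each library, on a log axis, for Junb over Jun, Batf over Batf3 and Fosl2 over Fos. The dotted line marks a ratio of 1. Junb over Jun and Batf over Batf3 cross the line only in αGlu 2 and αGlu 3, and Fosl2 over Fos stays near it in all libraries.

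With all 6 libraries, the quasi-likelihood test of edgeR, a count model fitted to all genes, called no member, a call requiring both an adjusted p under 0.1 and a log2 fold change beyond 1 in either direction. The background was the same: 0 of 11933 tested genes, or 0%, were called. At an unadjusted p under 0.05, 2 of the 8 tested members stood out, Batf as higher and Batf3 as lower, against 24.7% of all tested genes (12.7% higher and 11.9% lower). The same 2 members were those whose αGlu and Ctr values did not overlap, against 30.2% of all tested genes (14.2% higher and 15.9% lower), so both shares were near the background. The median log2 fold change was 0.61 over the 8 tested members and 0.016 over all tested genes. DESeq2 called 3 members, Batf as higher and Batf3 and Fosl1 as lower, where it called 8.13% of 13742 genes (4.21% higher and 3.92% lower), and the likelihood ratio test of edgeR called Batf and Batf3, where it called 7.53% of genes (3.87% higher and 3.66% lower).

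Without αGlu 1, edgeR called 5 of the 8 tested members, Fos, Fosl2 and Batf as higher and Jun and Batf3 as lower, and all 8 had an adjusted p under 0.1, as did 49.1% of all genes in that comparison. The background of calls was 18.6% of 12340 genes, with 8.05% called higher and 10.5% called lower. αGlu 1 was singled out by its profile in these same data, so leaving it out lowers the spread within αGlu. The common dispersion, the spread shared by all genes in the fit, was 0.069 with αGlu 1 and 0.0203 without it. Adjusted p values and calls without αGlu 1 are therefore a description and no independent support, here and for each gene below. The levels of αGlu 2 and αGlu 3 were both outside the Ctr range for 7 of the 8 tested members, all but Jund, against 65.8% of all tested genes. Above it were 5 members (33.6% of all tested genes) and below it 2 members, Jun and Batf3 (32.2%). In αGlu 1, 4 of the 8 (Jun, Junb, Jund and Maff) lay within the Ctr range, against 42.6% of all tested genes. Fos and Fosl2 lay on the side of the Ctr range opposite to αGlu 2 and αGlu 3, a position held by 10.9% of all tested genes.

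**Figure D3:**
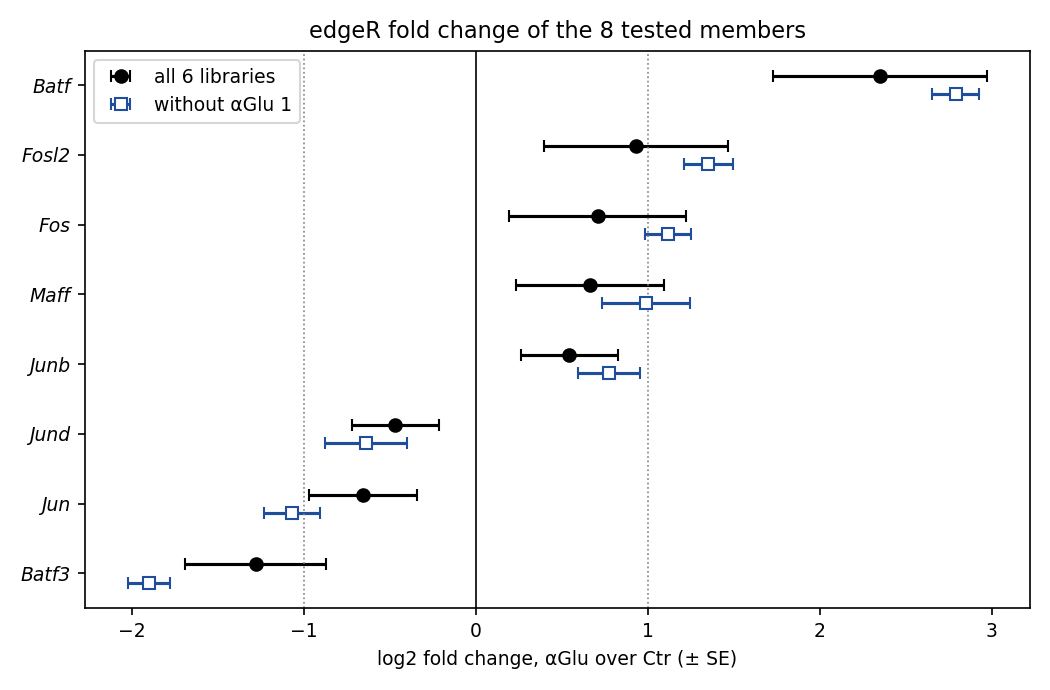
Log2 fold change of the 8 tested AP-1 members, αGlu over Ctr, with the SE of the edgeR fit as bars. Filled circles use all 6 libraries, open squares leave out αGlu 1, and dotted lines mark an absolute log2 fold change of 1. Each member keeps its direction without αGlu 1, and the SE of Batf is 0.62 with it and 0.14 without it.

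Among the 8 tested members, Batf and Batf3 had the largest fold changes, in opposite directions. Batf encodes a partner of Jun proteins that binds composite elements together with IRF4 or IRF8. Its level was 4.91, 5.27 and 3.90 CPM in Ctr 1 to 3 and 6.19, 30.9 and 34.4 CPM in αGlu 1 to 3. All αGlu libraries lay above all Ctr libraries, αGlu 1 just above and αGlu 2 and αGlu 3 far above. The log2 fold change was 2.35 ± 0.62 (SE), with an adjusted p of 0.157 in edgeR, from means of 4.69 ± 0.709 CPM (SD, n = 3) and 23.8 ± 15.4 CPM. Without αGlu 1 it was 2.79 ± 0.14, and Batf was called as higher with an adjusted p of 4.80e-05 in edgeR. With all libraries DESeq2 gave an adjusted p of 0.00292 and the likelihood ratio test of edgeR one of 0.00681.

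Batf3 encodes a shorter relative of BATF that is best known for its role in the development of cross-presenting dendritic cells. Its level was 18.4, 20.1 and 22.6 CPM in Ctr 1 to 3 and 14.5, 5.51 and 5.47 CPM in αGlu 1 to 3. All αGlu libraries lay below all Ctr libraries, αGlu 2 and αGlu 3 the farthest. The log2 fold change was -1.28 ± 0.41 (SE), with an adjusted p of 0.163 in edgeR. Without αGlu 1 it was -1.90 ± 0.12, and Batf3 was called as lower with an adjusted p of 0.000129 in edgeR. Summed dendritic cell markers ran from 1.62 to 2.22 CPM in Ctr and from 0.770 to 1.38 CPM in αGlu, with Xcr1 at 0, and their part in the Batf3 result was not tested.

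**Figure D4:**
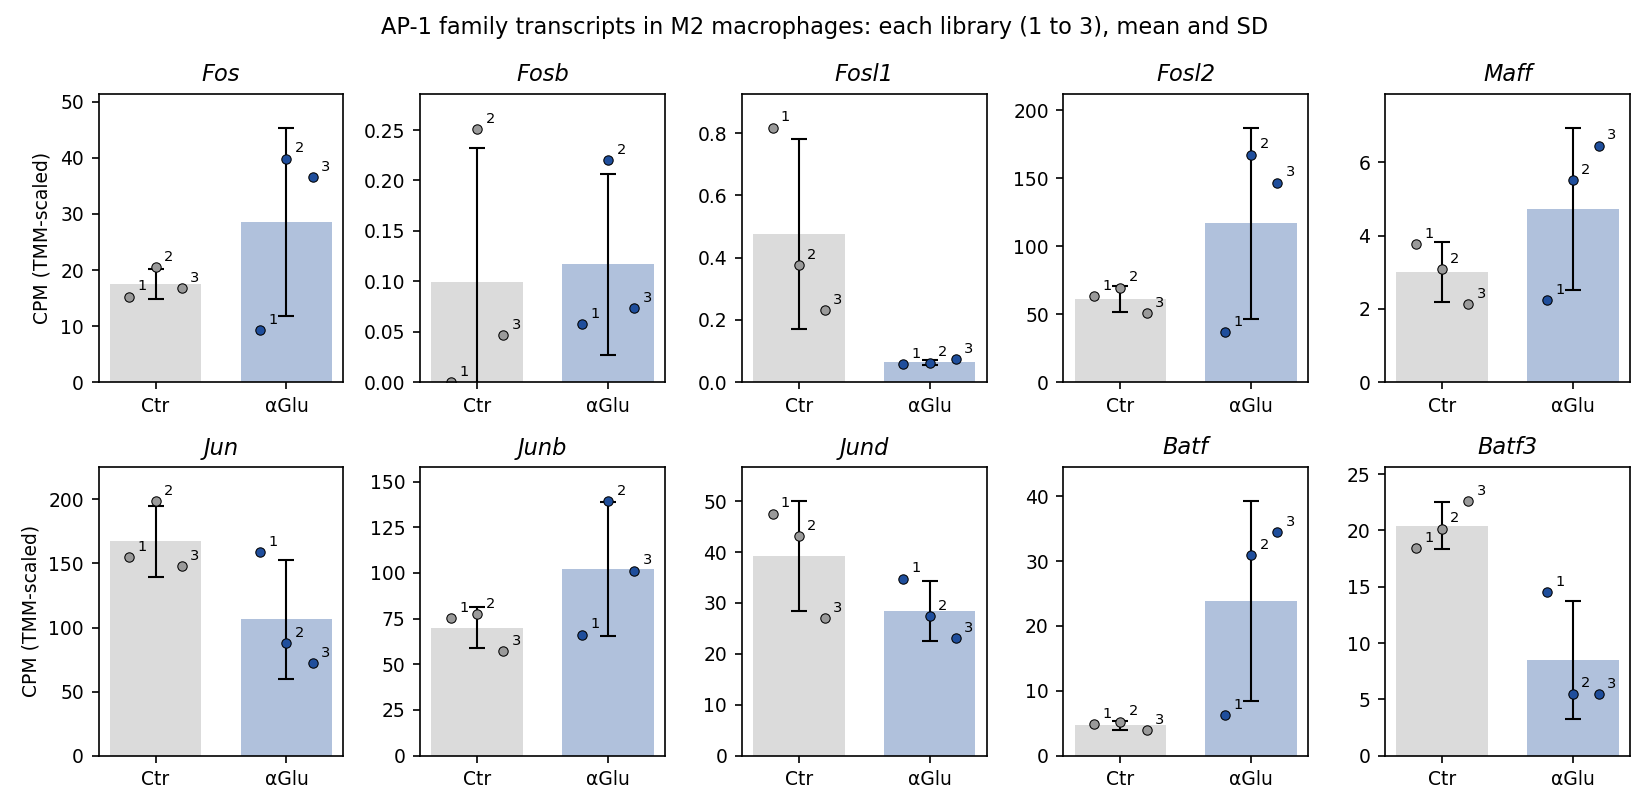
TMM-scaled CPM of each of the 10 AP-1 members (vertical axes start at 0 and differ between panels). Points are libraries, numbered 1 to 3, bars are group means and error bars are SD, cut off at 0 for Fosb. For Batf the αGlu 2 and αGlu 3 points are at 30.9 and 34.4 CPM and αGlu 1 is at 6.19 CPM, close to the Ctr points, and for Fos and Fosl2 αGlu 1 is the lowest point of all libraries.

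Among the Fos family, Fos and Fosl2 followed the same pattern over the libraries. Fos encodes the classical immediate early gene product of AP-1, which is induced briefly by growth factors and stress. Its level was 15.3, 20.6 and 16.8 CPM in Ctr 1 to 3 and 9.23, 39.9 and 36.6 CPM in αGlu 1 to 3. The groups overlapped, because αGlu 1 was the lowest and αGlu 2 and αGlu 3 the highest of all libraries. In the fit over all libraries Fos had a log2 fold change of 0.71 ± 0.52 (SE), with an adjusted p of 0.397 in edgeR. Without αGlu 1 it was 1.12 ± 0.13, and Fos was called as higher with an adjusted p of 0.00118 in edgeR.

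Fosl2 encodes FRA-2, a Fos relative without the strong transactivation domain of FOS. Its level was 63.5, 69.6 and 50.7 CPM in Ctr 1 to 3 and 36.5, 167 and 147 CPM in αGlu 1 to 3. As for Fos, αGlu 1 was below every Ctr library and the other αGlu libraries were above them. The log2 fold change was 0.93 ± 0.53 (SE), with an adjusted p of 0.304 in edgeR. Without αGlu 1 it was 1.35 ± 0.14, and Fosl2 was called as higher with an adjusted p of 0.000799 in edgeR. Fosl2 had more reads than Fos in every library, but per transcript length, in TPM, their levels were close.

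Fosl1, which encodes FRA-1, and Fosb were near the limit of detection. A count of 3 corresponded to 0.0944 to 0.172 CPM, depending on the library. Fosl1 had 18, 9 and 5 reads in Ctr 1 to 3 and 1, 2 and 2 reads in αGlu 1 to 3, and every αGlu library was below every Ctr library. Summed over libraries the Ctr to αGlu ratio in CPM was 7.25, and its exact 95% limits, for counting error alone, were 2.80 and 23.8. Without αGlu 1 the ratio was 6.997, with limits of 2.48 and 27.2. DESeq2, which kept this gene, gave a log2 fold change of -2.88 ± 1.02 (SE) and an adjusted p of 0.0483. Fosl1 overlaps Ccdc85b on the opposite strand, which had 38 to 78 reads, and the counting strand was not given in the sources used here. Fosb had 0, 6 and 1 reads in Ctr 1 to 3 and 1, 7 and 2 reads in αGlu 1 to 3. Its αGlu to Ctr ratio was 1.26, with limits of 0.433 and 3.90, and without αGlu 1 it was 1.47, with limits of 0.487 and 4.65, so no difference of Fosb was detectable at this depth.

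In the Jun family, Jun and Junb differed in opposite directions. Jun encodes the main transactivating partner of the Fos proteins. Its level was 155, 199 and 148 CPM in Ctr 1 to 3 and 159, 87.6 and 72.5 CPM in αGlu 1 to 3. The groups overlapped through αGlu 1, which lay within the Ctr range, and αGlu 2 and αGlu 3 were the lowest of all libraries. Over all libraries Jun differed by a log2 fold change of -0.65 ± 0.31 (SE), with an adjusted p of 0.244 in edgeR. Without αGlu 1 it was -1.07 ± 0.16, and Jun was called as lower with an adjusted p of 0.00319 in edgeR.

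Junb encodes a Jun protein with weaker transactivation that can restrain JUN at shared elements. Its level was 75.4, 77.5 and 57.4 CPM in Ctr 1 to 3 and 66.2, 139 and 101 CPM in αGlu 1 to 3. Again αGlu 1 lay within the Ctr range, and αGlu 2 and αGlu 3 were the highest of all libraries. Junb had a log2 fold change of 0.55 ± 0.28 (SE), with an adjusted p of 0.267 in edgeR. Without αGlu 1 it was 0.77 ± 0.18 with an adjusted p of 0.0164 in edgeR, which stayed under the fold change needed for a call.

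Jund encodes the Jun protein that most cells express without stimulation. Its level was 47.6, 43.1 and 27.1 CPM in Ctr 1 to 3 and 34.8, 27.5 and 23.0 CPM in αGlu 1 to 3. The groups overlapped, since Ctr 3 lay below αGlu 1 and αGlu 2, and Jund was the one tested member for which αGlu 2 and αGlu 3 were not both outside the Ctr range. Jund had a log2 fold change of -0.47 ± 0.25 (SE), with an adjusted p of 0.283 in edgeR, and -0.64 ± 0.24 without αGlu 1, with an adjusted p of 0.0771. Reads of Jun, Junb and Jund are uncertain where a gene lies on the opposite strand. Junb overlaps Prdx2, which had 2146 to 4390 reads per library, Jun overlaps the antisense gene Junos, with 10 to 66 reads, and Jund overlaps the antisense gene Gm11175, with 2 to 7 reads.

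Maff encodes a small Maf protein, a bZIP factor without a transactivation domain that pairs with NRF2 and BACH proteins. Its level was 3.77, 3.09 and 2.13 CPM in Ctr 1 to 3 and 2.24, 5.51 and 6.46 CPM in αGlu 1 to 3. The groups overlapped through αGlu 1, and αGlu 2 and αGlu 3 were above every Ctr library. Maff had a log2 fold change of 0.67 ± 0.43 (SE), with an adjusted p of 0.348 in edgeR, and 0.99 ± 0.26 without αGlu 1, with an adjusted p of 0.0245 and just under the fold change needed for a call.

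By their GENCODE M21 positions on GRCm38, Fos (chr12:85473890-85477273) and Batf (chr12:85686669-85709087) are neighbours on the plus strand. From the start of Fos to the end of Batf the stretch spans 235 kb and holds 3 protein-coding genes, the third being Jdp2 (chr12:85599027-85639878), which encodes a bZIP repressor that pairs with Jun proteins. Jdp2 stood at 4.27, 5.14 and 6.36 CPM in Ctr 1 to 3 and at 5.85, 22.5 and 21.7 CPM in αGlu 1 to 3. Its αGlu 2 and αGlu 3 values were above all Ctr libraries, as for both neighbours and for 33.6% of all tested genes. Its αGlu 1 value lay within the Ctr range, which was the case for neither neighbour. The other members lie apart from this stretch, with Jun on chromosome 4 (chr4:95049034-95052222, minus strand), Junb and Jund on chromosome 8 (chr8:84974484-84978718, minus strand, and chr8:70698949-70700616), Fosl2 on chromosome 5 (chr5:32135801-32157842), Batf3 on chromosome 1 (chr1:191097847-191108945) and Maff on chromosome 15 (chr15:79346621-79359076).

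The promoters of Fos, Junb, Batf and Jun are shown because these members went in different directions in αGlu 2 and αGlu 3 and hold short elements of the kind that AP-1 and CREB/ATF dimers bind. The sequences are from RefSeq (GRCm38.p6), 5′ to 3′ on the strand of the gene, within the 150 bases before its RefSeq start, which for Junb and Batf differs from the GENCODE M21 position given above. Capitals mark TGACG, a part of the cyclic AMP response element, in Fos, Junb and Batf, the TATA box TATAAA in Fos, and TGACATCA, a variant of that element, in Jun.
Fos, chr12:85473740-85473889, plus strand: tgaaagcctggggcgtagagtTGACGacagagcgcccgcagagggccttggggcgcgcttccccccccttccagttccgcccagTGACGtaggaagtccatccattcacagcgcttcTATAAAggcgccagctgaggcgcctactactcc
Junb, chr8:84978749-84978898, minus strand: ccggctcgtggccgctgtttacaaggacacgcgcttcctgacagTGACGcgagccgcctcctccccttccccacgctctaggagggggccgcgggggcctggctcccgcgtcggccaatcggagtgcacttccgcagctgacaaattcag
Batf, chr12:85686570-85686668, plus strand: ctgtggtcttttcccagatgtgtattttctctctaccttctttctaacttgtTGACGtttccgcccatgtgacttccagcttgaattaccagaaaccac
Jun, chr4:95052223-95052372, minus strand: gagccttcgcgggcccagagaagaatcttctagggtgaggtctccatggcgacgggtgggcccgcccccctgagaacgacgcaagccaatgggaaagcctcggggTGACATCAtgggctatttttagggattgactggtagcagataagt

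Motifs were searched on both strands in windows from 250 bases before to 50 bases after each start, and 9 of the 10 members had a window, 11 windows in all. TGACG was in 6 of these 11 windows, those of Fos, Fosb, Junb, Batf and Maff, and in 20.8% of all 32851 windows. Counted from the RefSeq start, it lay 129 and 66 bases before in Fos, 106 bases before in Junb and 98 bases before in Batf. TATAAA was found 33 bases before the RefSeq start of Fos and 1 base after that of Junb, in 2 of the 11 member windows and in 13.6% of all windows. The match in Junb lay before its GENCODE M21 start, which is downstream of the RefSeq start. TGACATCA was found 45 bases before the start of Jun, in a Maff window, and in 3.62% of all windows. The windows of Fosl2 and Batf3 held neither TGACG nor TGACATCA, and a Maff window held both, so the promoters shown do not stand for all members. For Fosl2, Batf3 and Maff the windows with any match lay downstream of the GENCODE M21 start. These windows did not cover the bases before that start. The full element TGACGTCA, which contains TGACG, was in a Maff window and in 1.79% of all windows. The AP-1 element TGANTCA was in 0 of the 11 member windows and in 7.81% of all windows. TTCNNNGAA, a core that many STAT proteins bind, was in the Batf3 window, 239 bases before its start, in a Maff window, and in 8.3% of all windows. Other spacings of this core were not searched. The κB motif was in windows of Fosl2, Fosb, Fos and Maff and in 8.46% of all windows, and the CArG box in 0 member windows and 1.63% of all windows. A match says only that these letters are present in the window, and an absence says nothing of bases outside the window.

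The genes whose profiles were most like each member were sought among 8385 tested genes whose log2 CPM averaged 3 or more, by the root mean square difference of centred log2 CPM over the 6 libraries, where the member itself spanned 1.04 (Jund) to 3.12 (Batf) log2 units. For Batf they were Bcl3 (0.168) and Rapgef2 (0.184), and for Batf3 Cd300ld (0.106) and Elmo2 (0.107). For Fos they were Impdh1 (0.164) and Egln1 (0.183), with Fosl2 between them at 0.175, and for Fosl2 they were Rab11fip1 (0.122) and Cish (0.178). Fos and Fosl2 were thus each other's nearest member. For Jun the nearest genes were Ppfibp2 (0.0367) and Slc29a3 (0.0610), for Junb Il1rl2 (0.0799) and Aars2 (0.0829), for Jund Dip2c (0.0798) and Abl2 (0.0958), and for Maff Gas7 (0.122) and St3gal1 (0.131). The member nearest to Batf, Fosl2, differed from it by 0.678, so no other member had a profile as close to Batf as Bcl3 did. Such profiles share libraries and the split of αGlu 2 and αGlu 3 from the rest, and are given as a description.

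The other bZIP proteins that pair with AP-1 members were examined as a list of 12 genes, all tested. At an unadjusted p under 0.05 in edgeR, 4 were higher and 1 was lower, against a background of 12.7% and 11.9% of all tested genes, and their median log2 fold change was 0.073. None was called. Jdp2 had a log2 fold change of 1.67 ± 0.51 (SE), with an adjusted p of 0.160 in edgeR. Atf3, a stress-induced bZIP factor that pairs with JUN, stood at 646, 764 and 643 CPM in Ctr 1 to 3 and at 521, 247 and 180 CPM in αGlu 1 to 3. All αGlu libraries of Atf3 lay below all Ctr libraries, with a log2 fold change of -1.12 ± 0.40 (adjusted p = 0.178 in edgeR).

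Of the 24 genes of the MAP kinase and SRF pathways that feed Fos and Jun transcription, all were tested, 7 were higher and 3 lower at an unadjusted p under 0.05 (12.7% and 11.9% of all tested genes), and the median log2 fold change was 0.15. Map2k3, which encodes a kinase of p38, had a log2 fold change of -0.63 ± 0.14 (SE), with an adjusted p of 0.156 in edgeR. Elk3, which encodes a ternary complex factor that binds with SRF, stood at 19.9, 19.4 and 20.2 CPM in Ctr 1 to 3 and at 21.7, 114 and 102 CPM in αGlu 1 to 3, with a log2 fold change of 2.00 ± 0.58 (adjusted p = 0.159 in edgeR). Mapk3, which encodes ERK1, had one of -0.50 ± 0.17 (adjusted p = 0.168 in edgeR). These 3 genes had the smallest p of the list. Their groups did not overlap, though for Elk3 αGlu 1 lay close to the Ctr libraries. Over the 24 genes, groups did not overlap for 5 as higher and 3 as lower, against 14.2% and 15.9% of all tested genes.

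Among 9 factors that bind DNA beside AP-1, all tested, 2 were higher and 2 lower at an unadjusted p under 0.05 (12.7% and 11.9% of all tested genes), with a median log2 fold change of 0.024. Irf4, whose product binds with BATF and JUN proteins and serves M2 polarization, stood at 30.3, 26.9 and 25.3 CPM in Ctr 1 to 3 and at 8.95, 2.05 and 1.54 CPM in αGlu 1 to 3. All αGlu libraries, αGlu 1 included, were far below all Ctr libraries, with a log2 fold change of -2.76 ± 0.68 (SE), with an adjusted p of 0.156 in edgeR. Batf thus stood higher in the libraries in which Irf4, the gene for its binding partner, stood lower. In αGlu 1, though, Batf was only just above the Ctr libraries, at 6.19 CPM. Batf had the largest fold change of the tested members and Irf4 the smallest p of its list, and a relation between them was not tested. Ets2, which encodes an ETS factor that acts with AP-1, stood at 11.8, 10.9 and 11.2 CPM in Ctr 1 to 3 and at 9.35, 134 and 145 CPM in αGlu 1 to 3, with a log2 fold change of 3.09 ± 0.93 (adjusted p = 0.160 in edgeR), so αGlu 1 was on the opposite side, as for Fos and Fosl2. Spi1, which encodes the macrophage factor PU.1, had a log2 fold change of -0.28 ± 0.11 (adjusted p = 0.188 in edgeR).

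Of 9 genes for the turnover of AP-1 mRNAs and proteins, all tested, 1 was higher and 1 lower at an unadjusted p under 0.05, near the 12.7% and 11.9% of all tested genes, with a median log2 fold change of -0.13. Groups did not overlap for 1 of the 9 as higher and 4 as lower, against 14.2% and 15.9% of all tested genes. Zfp36l1, which encodes a protein that directs decay of mRNAs with AU-rich elements, had a log2 fold change of 2.00 ± 0.54 (SE), with an adjusted p of 0.157 in edgeR, and its relative Zfp36l2 one of -0.63 ± 0.26 (adjusted p = 0.205 in edgeR). Itch, which encodes a ubiquitin ligase of JUN and JUNB, had one of -0.47 ± 0.16 (adjusted p = 0.174 in edgeR).

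Of 21 classical AP-1 target genes, 16 passed the filter, 6 were higher and 4 lower at an unadjusted p under 0.05 (12.7% and 11.9% of all tested genes), and the median log2 fold change was 0.68. Vegfa, an angiogenic growth factor gene, stood at 40.2, 33.4 and 44.2 CPM in Ctr 1 to 3 and at 62.2, 127 and 87.4 CPM in αGlu 1 to 3, with a log2 fold change of 1.23 ± 0.27 (SE), with an adjusted p of 0.155 in edgeR. Ptgs2, which encodes the inducible cyclooxygenase, stood at 2.86, 2.63 and 2.74 CPM in Ctr 1 to 3 and at 4.01, 73.3 and 55.9 CPM in αGlu 1 to 3, with a log2 fold change of 4.02 ± 1.002 (adjusted p = 0.156 in edgeR). Il1b, the gene of an inflammatory cytokine, stood at 0.454, 0.293 and 0.278 CPM in Ctr 1 to 3 and at 0.0574, 322 and 345 CPM in αGlu 1 to 3 (adjusted p = 0.156 in edgeR). For Vegfa and Ptgs2 every αGlu library was above every Ctr library, whereas for Il1b αGlu 1 was the lowest of all libraries. That Il1b value was under the 0.172 CPM of a count of 3 in αGlu 1, so its place below the low Ctr values is uncertain. Mmp12, the gene of macrophage elastase, was picked out after its values were seen because it went the other way, from 2984, 2740 and 2503 CPM in Ctr 1 to 3 to 1176, 301 and 193 CPM in αGlu 1 to 3, with a log2 fold change of -2.30 ± 0.70 (adjusted p = 0.160 in edgeR).

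Without αGlu 1, edgeR called 9 of 18 tested target genes as higher and 7 as lower, where it called 8.05% and 10.5% of all genes. In the same comparison it called 1 higher and 1 lower of the other bZIP genes, 2 higher and 2 lower of the MAP kinase and SRF genes, 2 higher and 1 lower of the DNA-binding partners, and 1 higher of the turnover genes. Vegfa, Ptgs2 and Il1b rose in it with log2 fold changes of 1.45, 4.55 and 9.91, Elk3, Ets2 and Zfp36l1 rose with 2.44, 3.62 and 2.42, and Irf4 and Atf3 fell with -3.93 and -1.69. The size of the Il1b fold change is imprecise, because its Ctr levels were near the limit of detection. The target genes therefore went in both directions, as did the AP-1 members. Of the target genes, 18 passed the filter without αGlu 1 and 16 with all libraries. The lists were chosen with earlier results of these data known, and αGlu 1 was left out for its profile in them. These counts are therefore a description and no independent support.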

How the data were processed

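RNA from 3 Ctr and 3 αGlu cultures was sequenced as stranded mRNA (Illumina Stranded mRNA kit, NovaSeq). The authors used the QIAGEN RNA-seq Analysis Portal for read annotation and normalization, and the submitters' processing notes name the build GRCm38. Not given in the sources used here were the aligner, the annotation release, the counting strand and the treatment of multi-mapping reads. The deposited counts are whole reads per gene without normalization, the deposited TPM values are scaled by length and depth, and the deposited RPKM values are reads scaled likewise. A CPM column per library, deposited by the authors and empty for 10708 genes, was left unused, 6 columns in all.

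Groups and library numbers came from the labels. With edgeR 4.0.16, genes of low count were removed by filterByExpr (minimum 10, total 15), and counts were scaled by TMM and fitted with a quasi-likelihood negative binomial model with group as the only term, two-sided, with Benjamini-Hochberg adjustment over 11933 genes (R 4.3.3). A call required an adjusted p under 0.1 together with a log2 fold change beyond 1 in either direction. SEs were obtained by dividing the fold change by the root of F. CPM used TMM-scaled library sizes, and log2 CPM had a prior count of 2. TPM served for levels between genes, and RPKM as an alternative. Library pairs differed by more than sampling noise (chi-square per gene at least 19.8). The scripts were tested on simulated data. Alternatives were DESeq2 1.42.0, limma-voom (limma 3.58.1), other scalings and filters, a replicate block and each library left out. Members and lists were chosen with earlier results of these data known. The count ratios without αGlu 1 and the alternatives for the named list genes were added after seeing the data. Named list genes were the 3 with the smallest p of each list, of which 1 is not reported here, and profiles were compared for members spanning at least 1 log2 unit. All 10 members matched GENCODE M21 identifiers. An exact permutation test of 3 against 3 libraries cannot go below p = 0.1, so none was used. Figures were drawn with Python 3.11.15 and matplotlib 3.10.9. The precision of low genes is limited by depth, and intervals and floors cover counting error only.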

Additional observations from a re-analysis of the deposited data

How the results depend on the processing

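None of the 8 tested AP-1 members changed direction under the 14 alternatives, and Fosb and Fosl1 are not covered by this count. Over them the log2 fold change ran from 1.99 to 2.79 for Batf (adjusted p from 4.80e-05 to 0.427) and from -1.90 to -1.04 for Batf3 (0.000129 to 0.428). The number of members called, 0 with all libraries, was 3 by DESeq2, 2 by the likelihood ratio test and 2 at an adjusted p under 0.2, and 0 to 5 when a library was left out, with 5 only without αGlu 1. Over all genes the count of 0 became 1117 by DESeq2, 899 by the likelihood ratio test, 993 at an adjusted p under 0.2, and 0 to 2290 with a library left out, the highest without αGlu 1. The members at an unadjusted p under 0.05, 2 in edgeR, were 1 by limma-voom and 1 to 8 with a library left out, 8 without αGlu 1 and 1 without Ctr 2, αGlu 2 or αGlu 3. The members whose groups did not overlap were 2 to 7 with a library left out, 7 without αGlu 1 and 3 without Ctr 3. The difference of the mean Jun-family share ran from -15.2 points without αGlu 1 to -3.84 points. The cause of these differences between settings was not tested. Scaling by library size alone moved the median log2 fold change of all genes to 0.1004. Same-numbered libraries deviated together with r = 0.0764, 0.0646 and 0.154, and differently numbered ones with r from -0.112 to 0.0459. The same-numbered values were thus the highest, though small, and whether the numbers pair the samples was not tested. The fit with the replicate number as a block called 17 genes and 0 members. For genes with few reads, such as Fosl1 and Fosb, depth limits what can be seen.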
